A study of Mus musculus with 8 samples.

Results

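The 34 genes described here encode 25 transcription regulators of the epidermis and 9 components of the Notch pathway. They were taken by name from the 21690 genes of the deposited expression data. The rule itself uses no measured value, but the list was chosen with earlier results of these data known. All 34 were found, and 32 passed the filter on low values, a mean of at least 1 TPM (a length-normalized share of the transcripts in a library). The epidermis came from the back skin of mouse pups at postnatal day 5. Control pups (4 libraries) were Esrp1flox/flox; Esrp2-/- with no transgene in their label. Experimental pups (4 libraries) were K5rTA tetOCre Esrp1flox/flox; Esrp2-/-, in which a keratin 5-driven transactivator switches on Cre under doxycycline and so deletes Esrp1 in basal keratinocytes and their progeny. Dams of both groups were kept on a high doxycycline diet between embryonic day 17 and the day of collection. Since the controls carry Esrp2-/- as well, the comparison is of the added loss of Esrp1, an epithelial splicing regulator, together with the transgenes. The labels call the libraries biological replicates.

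The epidermis renews itself from basal keratinocytes, which stop dividing, move outwards and differentiate into the spinous, granular and cornified layers. p63, encoded by Trp63, maintains the basal state, and AP-2, Kruppel-like, C/EBP, ETS-family and OVOL factors act at successive steps of differentiation. Notch is a cell-contact pathway: a Jagged or Delta ligand on one cell causes cleavage of a Notch receptor on its neighbour. The freed receptor fragment joins the DNA-binding protein RBPJ and switches on genes of the Hes and Hey families. In skin, Notch signalling promotes the exit of keratinocytes from the basal layer and takes part in hair follicle differentiation.

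Esrp1 read 131 to 162 TPM in control libraries and 49.8 to 75.6 TPM in experimental ones (log2 change -1.13, SE 0.17, limma adjusted p = 0.0112), the direction that the genotypes give. Esrp2 transcript was still detected, at 3.07, 0, 2.14 and 3.31 TPM across the controls, with 4.98, 3.25, 5.28 and 4.22 TPM in the experimental group. Its groups overlapped, and it did not pass (log2 change 0.73, SE 0.25, limma adjusted p = 0.176). The position of the Esrp2 deletion is not in the labels, so these values do not check that genotype. Keratins of basal and suprabasal cells were abundant, whereas the endothelial genes Pecam1, Cdh5, Kdr and Tek, and 5 of 11 dermal fibroblast genes, among them Pdgfra and Lum, were listed at 0 in all 8 libraries. The other 6 fibroblast genes were above 1 TPM in at least 1 library, and the list summed to 143, 92.2, 54.2 and 13.9 TPM in control libraries 1 to 4 and to 46.3 to 59.2 TPM in the experimental group. Of 13 endothelial, muscle, fat and blood genes 9 were listed at 0 throughout, and the others, 3 haemoglobin genes and muscle actin (Acta1, 1.77 TPM in control library 1 and listed at 0 elsewhere), brought the sum to between 173 and 9021 TPM in controls and between 212 and 3949 TPM in the experimental group. Hair follicle genes were abundant: the summed level of 25 follicle markers ran from 7402 to 53683 TPM in controls and from 1801 to 12585 TPM in experimental libraries. Of the 22 follicle markers tested, 20 had a log2 change below 0 (median -1.40), and 0 passed the threshold. Groups were apart for 6 of them, each lower, or 27.3%, next to 12.6% of all genes tested. The controls also differed among themselves in basal and cell cycle markers. The summed level of 14 basal keratinocyte markers was 8208, 6994, 2880 and 936 TPM in control libraries 1 to 4 and 1797 to 3093 TPM in experimental libraries. Sebaceous gland markers, 14 genes, summed to 710 to 1104 TPM in controls and to 528 to 704 TPM in the experimental group. These sums did not overlap, but only a narrow gap separated the lowest control (709.9 TPM) from the highest experimental library (703.8 TPM). Of the 13 tested, 2 fell past the threshold (median log2 change -1.31), next to 1.54% of all genes tested. For 15 cell cycle markers the sum was 348, 225, 90.4 and 44.5 TPM in the controls and 104 to 113 TPM in the experimental group. In bulk RNA, fewer cells of a type and less RNA per cell cannot be told apart. Mitochondrial genes took 18.2% and 17.5% of TPM in experimental libraries 2 and 4 and 10.6% to 12.6% in the other 6. No label gives litter, sex or batch, and TPM keeps no sequencing depth.

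In control epidermis the most abundant of these genes was Klf4, a Kruppel-like factor needed for the skin barrier, at 398 ± 28.0 TPM (SD, n = 4). Its lowest control value exceeded the highest of the next gene, Cebpb, at 236 ± 14.6 TPM. Cebpa, Hopx and Barx2 followed at 180.3 ± 51.3, 165 ± 31.7 and 139.6 ± 51.4 TPM. A group near 60 to 100 TPM held Zfp750, Gata3, Klf3, Pou2f3, Ovol1, Klf5, Pou3f1 and Tfap2a. Trp63 stood at 29.0 ± 16.3 TPM, and the 3 Notch receptors between 10.7 and 20.5 TPM. At the low end lay Elf3 at 4.13 ± 0.67 TPM and Cebpd at 2.13 ± 0.71 TPM. Of the 30 neighbouring pairs among 31 ranked genes, 28 overlapped in their control values. The 2 pairs that did not were Klf4 against Cebpb and Elf3 against Cebpd.

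**Figure D1:**
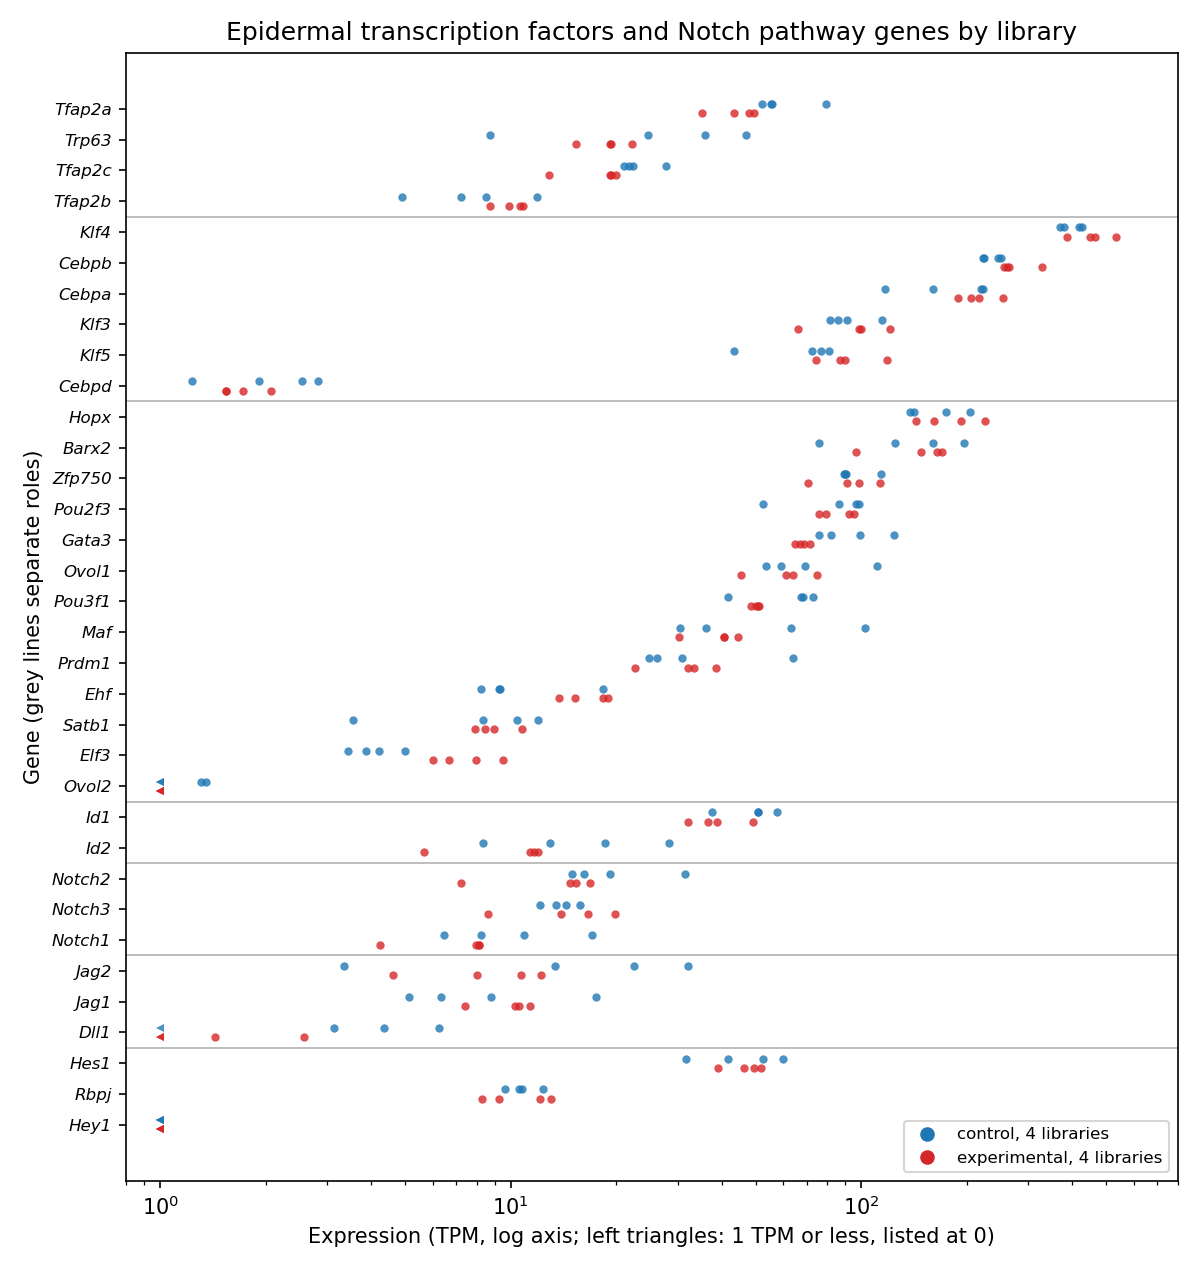
Expression in TPM (log axis) of the 34 genes in 4 control (blue) and 4 experimental (red) libraries, grouped by role; triangles mark entries of 1 TPM or less, listed at 0. Klf4 lies at the top of the range near 398 TPM in controls, Hey1 is listed at 0 in all 8 libraries, and for 27 of the 32 tested genes the colours overlap.

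Entries listed at 0 occurred for 3 genes. Hey1, a transcriptional repressor downstream of Notch, was listed at 0 in all 8 libraries. Ovol2, a zinc-finger repressor that guards epithelial identity, reached 1.35 and 1.30 TPM in the first 2 controls and was listed at 0 in the other 6. Both fell below the filter and were not tested. The third, the ligand gene Dll1, is described with the Notch genes.

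In limma none of the 32 tested genes reached an adjusted p under 0.05, the threshold used throughout, and 4 (Elf3, Ehf, Gata3 and Tfap2a) had an unadjusted p under 0.05. Over all 10682 genes tested 2.46% passed, 0.917% higher and 1.54% lower, and 16.9% had an unadjusted p under 0.05. No other tool was run on these values, which are not counts. On simulated data, which held no shifts shared by the genes of a library, the fit recovered 51% of log2 changes of 1. Smaller changes can thus be missed, and the absence of calls does not show equal levels. Log2 changes lay above 0 for 15 members and below 0 for 17, with a median of -0.04, against a median of -0.18 over all genes tested. They ranged from -0.80 for Dll1 to 0.73 for Elf3. The 10th to 90th percentiles of all genes, -0.62 to 0.22, held 24 of the 32. Above them lay Elf3, Klf5, Ehf, Tfap2b, Cebpa and Cebpb, and below them Jag2 and Dll1. Control and experimental values did not overlap for 5 members, 2 higher (Elf3, Cebpb) and 3 lower (Gata3, Tfap2a, Tfap2c). That is 15.6% of the tested members and 12.6% of all genes tested (2.70% higher and 9.94% lower), so the share was near the background.

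**Figure D2:**
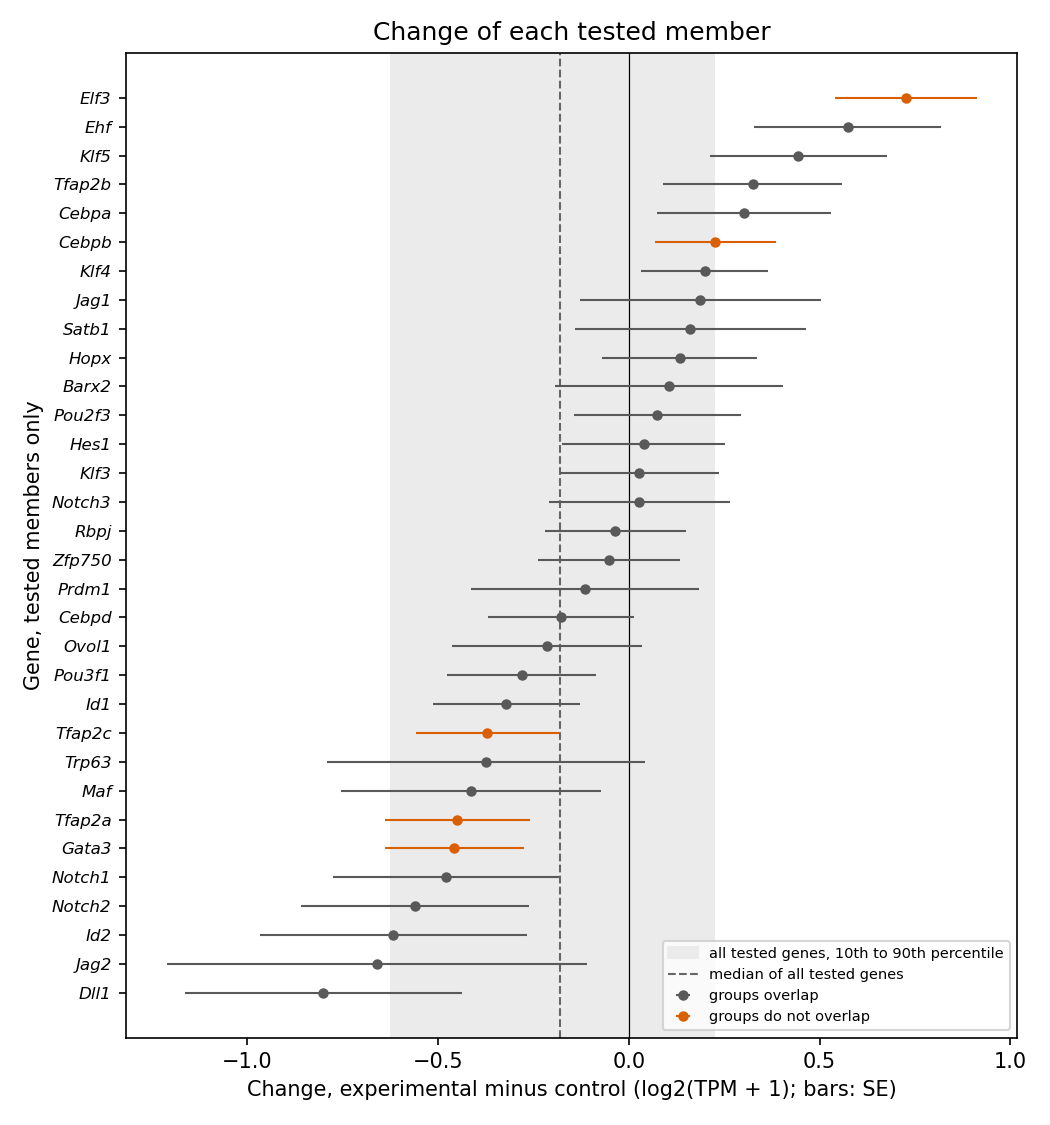
Change of each of the 32 tested genes, experimental minus control, on the log2(TPM + 1) scale, with bars of 1 SE; the grey band spans the 10th to 90th percentile of all 10682 genes and the dashed line is their median of -0.18. Elf3 lies farthest to the right at 0.73 and Dll1 farthest to the left at -0.80; orange marks the 5 genes whose groups do not overlap.

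Elf3 came nearest to the threshold. It encodes an epithelium-specific ETS factor that is active in differentiating keratinocytes. The gene (ENSMUSG00000003051.13; chromosome 1, 135253575 to 135258568, minus strand, GRCm38) had control values of 4.21, 3.87, 5.01 and 3.43 TPM and experimental values of 6.01, 6.65, 7.97 and 9.48 TPM. Each experimental value lay above the highest control. The mean was 1.82-fold higher, or 0.73 ± 0.19 (SE) as a log2 change, with a limma adjusted p of 0.0742. After each library was centred on its median, which added 0.21 to all log2 changes, Elf3 passed (log2 change 0.94, SE 0.15, limma adjusted p = 0.0143), and it passed with quantile normalization (limma adjusted p = 0.0135). Under those scalings 3.60% and 3.61% of all genes passed, and the split of all calls turned from 98 higher and 165 lower to 283 higher and 102 lower with centring and to 269 higher and 117 lower with quantile normalization.

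Ehf, the closest relative of Elf3 among the listed genes and another epithelial ETS factor, stood at 9.35, 9.25, 8.24 and 18.3 TPM across the controls, with 18.3, 13.8, 15.3 and 19.0 TPM in the experimental group. Control library 4 lay within the experimental range, and the other 3 controls lay below it. Its log2 change was 0.57 (SE 0.25, limma adjusted p = 0.268). Without control library 4, Ehf passed at a log2 difference of 0.81 (SE 0.18, limma adjusted p = 0.0282), in a fit in which 5.39% of all genes passed. The tested ETS genes Elf5, Ets2 and Elf1, from the further list of transcription factors described below, had log2 changes below 0. Elf5 had means of 37.7 TPM (control) and 14.7 TPM (experimental), and its groups overlapped (log2 change -1.37, SE 0.43, limma adjusted p = 0.141). Ets2 had groups apart (log2 change -0.50, SE 0.21, limma adjusted p = 0.254). Elf1 overlapped (log2 change -0.10, SE 0.22, limma adjusted p = 0.842).

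**Figure D3:**
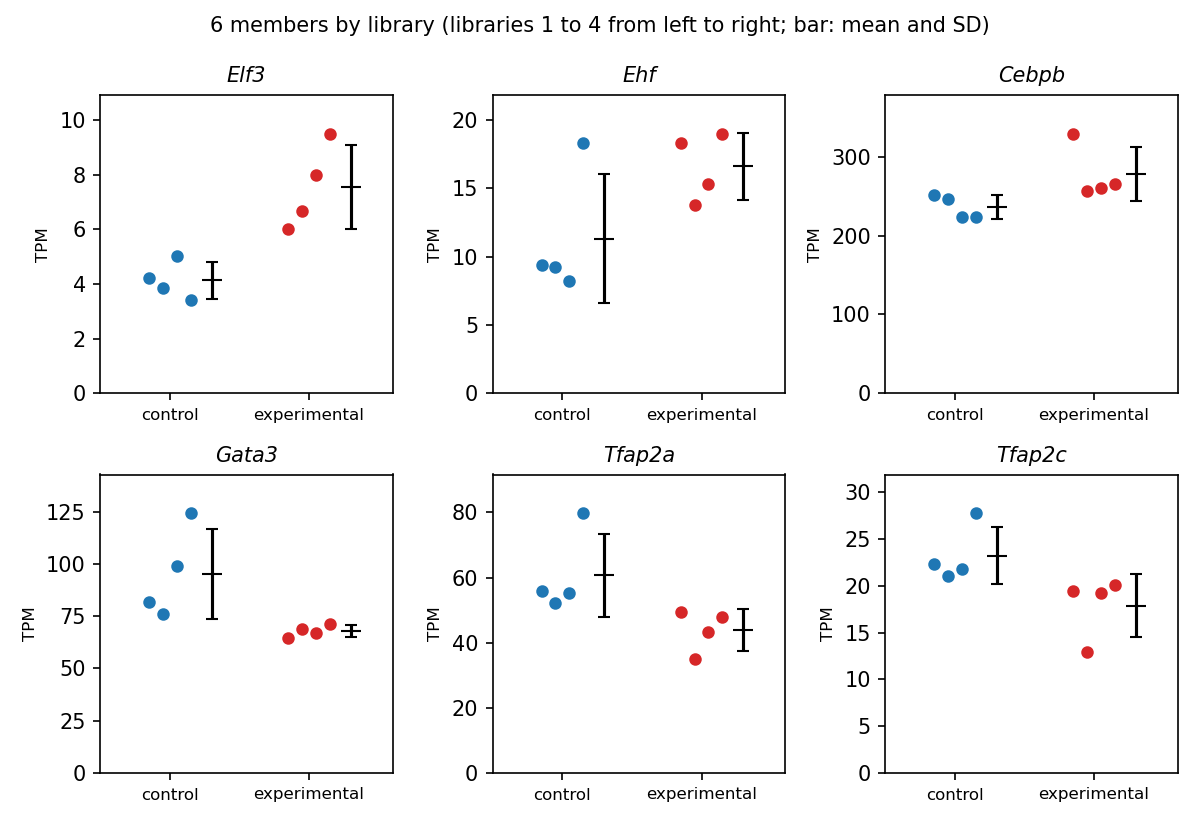
TPM of 6 members in control (blue) and experimental (red) libraries, with libraries 1 to 4 from left to right in each group and mean ± SD beside them. Elf3 and Cebpb lie higher and Gata3, Tfap2a and Tfap2c lower in each experimental library than in any control, while Ehf in control library 4 (18.3 TPM) lies among the experimental values.

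The promoters of Elf3 and Gata3 are shown because these genes had the lowest p-values among the members that read higher and lower, respectively. Each is the RefSeq window of 250 bases before to 50 bases after the annotated start (GRCm38.p6), written 5′ to 3′ on the gene's strand; Elf3 is at chr1:135258423-135258722 and Gata3 at chr2:9878551-9878850, both on the minus strand. Capitals mark matches on either strand to the RBPJ core TGGGAA (Elf3, where the match is on the opposite strand) or to the AP-2 motif GCCNNNGGC (Gata3).
Elf3: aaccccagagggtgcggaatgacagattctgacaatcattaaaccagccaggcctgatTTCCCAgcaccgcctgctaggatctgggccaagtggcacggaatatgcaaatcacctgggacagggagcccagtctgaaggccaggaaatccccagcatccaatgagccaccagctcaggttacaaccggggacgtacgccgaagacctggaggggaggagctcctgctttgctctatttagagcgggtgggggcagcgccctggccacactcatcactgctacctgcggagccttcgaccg
Gata3: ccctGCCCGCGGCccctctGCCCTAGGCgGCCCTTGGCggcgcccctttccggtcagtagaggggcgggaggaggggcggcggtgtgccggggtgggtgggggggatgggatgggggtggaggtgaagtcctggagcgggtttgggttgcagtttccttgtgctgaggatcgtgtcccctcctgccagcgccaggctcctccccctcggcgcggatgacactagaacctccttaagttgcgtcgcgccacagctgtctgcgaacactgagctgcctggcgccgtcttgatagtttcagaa
The Elf3 window held 1 match to the RBPJ core and no AP-2 match. The Gata3 window held 3 AP-2 matches, the last of them 1 base after the one before, and no RBPJ match. Of 32851 promoters in the RefSeq set, 25.6% held the RBPJ core and 16.6% the AP-2 motif. Among members, 20 had a promoter entry, 28 windows in all; 8 windows of 6 genes (Elf3, Ovol2, Prdm1, Rbpj, Satb1, Tfap2a) held the RBPJ core. The AP-2 motif was found in 6 windows of 5 genes (Gata3, Hopx, Jag2, Klf4, Satb1). The grainyhead-like motif AACCNGGTT was in none of the 28 and in 0.271% of all promoters. No match of one motif overlapped a match of another in the windows shown. A match is a description of the letters only.

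Gata3, a zinc-finger factor of the suprabasal epidermis and of the inner root sheath of the hair follicle, was measured at 81.9, 76.1, 99.2 and 124 TPM in the 4 controls, and the experimental values were 64.7, 68.9, 67.0 and 71.4 TPM. The experimental values lay within a narrow band below the lowest control. The mean was 1.40-fold lower (log2 change -0.46, SE 0.18, limma adjusted p = 0.230). Centring moved the log2 change to -0.24 (limma adjusted p = 0.638). Control library 4 had both the highest Gata3 and the highest hair follicle sum, 53683 TPM. The lowest Gata3, 64.7 TPM, was in experimental library 1, whose follicle sum of 12585 TPM was the highest of its group. Experimental library 2, with the lowest follicle sum, 1801 TPM, had Gata3 at 68.9 TPM. Control library 1 had Gata3 at 81.9 TPM with a follicle sum of 7402 TPM. A sum weighs the most abundant markers most. As a mean of log2 TPM over the 25 follicle markers, control libraries 1 to 4 read 5.94, 6.10, 6.43 and 6.98. Experimental libraries 1 to 4 read 5.82, 4.10, 5.13 and 5.46 on that measure, each below every control. The part of follicle RNA in the Gata3 difference was not tested.

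None of the 3 AP-2 genes passed, and their log2 changes differed in sign. AP-2 factors act with p63 in basal keratinocytes and at the start of differentiation. Tfap2a had control values of 55.7, 52.2, 55.2 and 79.7 TPM and experimental values of 49.4, 35.1, 43.3 and 47.9 TPM (log2 change -0.45, SE 0.19, limma adjusted p = 0.260). Tfap2c stood at 22.4, 21.0, 21.7 and 27.7 TPM across the controls, with 19.4, 12.9, 19.2 and 20.04 TPM in the experimental group (log2 change -0.37, SE 0.19, limma adjusted p = 0.347). For both genes the groups were apart, by a gap that was small beside the spread within groups. Tfap2b lay the other way, at 8.14 ± 2.93 and 10.04 ± 0.96 TPM (SD, n = 4 each), and its groups overlapped. Within each library Tfap2a supplied 59.2% to 71.0% of the TPM of the 3 genes.

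Cebpb, a C/EBP factor of the suprabasal layers, was measured at 251, 246, 224 and 223 TPM in the 4 controls, and the experimental values were 329, 257, 261 and 265 TPM. The lowest experimental value exceeded the highest control by a small margin, and experimental library 1 stood well above its group (log2 change 0.23, SE 0.16, limma adjusted p = 0.492). Its partner Cebpa averaged 180.3 ± 51.3 and 216 ± 27.3 TPM, and Cebpd, the least abundant of the 3, 2.13 ± 0.71 and 1.72 ± 0.25 TPM (SD, n = 4 each). These 2 overlapped between groups.

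Kruppel-like factors likewise overlapped. Klf4, which drives late differentiation, averaged 398 ± 28.0 in controls and 459.6 ± 60.0 TPM in experimental libraries. Klf5, a factor of proliferating basal cells, averaged 68.6 ± 17.1 and 92.4 ± 18.6 TPM, with control library 4 lowest at 43.5 TPM. Klf3, a repressor of the same family, averaged 93.2 ± 14.6 and 96.4 ± 22.5 TPM (SD, n = 4 each).

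For 7 further regulators of differentiation the group means differed by less than the SD of the controls. Zfp750, a p63 target required for terminal differentiation, averaged 96.0 ± 12.2 and 93.4 ± 18.0 TPM. Hopx, an atypical homeodomain protein of the upper layers, averaged 165 ± 31.7 and 181 ± 36.3 TPM, the POU-domain factor Pou2f3 83.4 ± 21.4 and 85.8 ± 9.82 TPM, and the homeobox gene Barx2 139.6 ± 51.4 and 145 ± 33.8 TPM (SD, n = 4 each). Ovol1, a zinc-finger repressor that acts at the exit from proliferation, averaged 73.2 ± 26.0 and 61.3 ± 12.0 TPM, and Prdm1, which encodes the repressor BLIMP1, 36.5 ± 18.6 and 31.6 ± 6.69 TPM. Satb1, a chromatin organizer, stood at 8.58 ± 3.68 and 9.02 ± 1.25 TPM. For these 7 genes a p above the threshold does not show equal levels, since SDs within controls reached a large part of the mean.

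Pou3f1 and Maf differed more among controls than among experimental libraries. Pou3f1, a POU-domain factor of the suprabasal layers, had control values of 68.2, 72.8, 67.6 and 41.6 TPM and experimental values of 51.1, 50.9, 48.5 and 50.3 TPM. Its experimental values lay within 3 TPM of each other, below 3 controls and above the fourth. Maf, a bZIP factor of differentiating keratinocytes, stood at 30.5, 36.2, 63.0 and 102 TPM across the controls, with 40.7, 30.2, 40.7 and 44.4 TPM in the experimental group. Control libraries 3 and 4 lay above the experimental range for Maf and libraries 1 and 2 within it.

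Among the Notch receptors, Notch1, the main receptor of the basal and first suprabasal cells, was measured at 17.1, 10.9, 8.24 and 6.44 TPM in the 4 controls, and the experimental values were 8.13, 4.24, 7.98 and 8.10 TPM. Notch2 had control values of 16.2, 14.9, 19.2 and 31.5 TPM and experimental values of 15.4, 7.23, 16.8 and 14.8 TPM. Notch3 averaged 13.9 ± 1.51 and 14.8 ± 4.76 TPM (SD, n = 4 each). All 3 receptors overlapped between groups, and experimental library 2 was the lowest of the 8 for each. Notch2 was the most abundant of the 3 in the mean of the controls, at 20.5 ± 7.59 TPM against 10.7 ± 4.64 TPM for Notch1 (SD, n = 4 each), and in control library 4 it supplied 60.2% of their summed TPM and Notch1 12.3%. Notch3 supplied 28.8%, 32.0%, 36.5% and 27.5% of their summed TPM in controls and 37.2%, 43.0%, 40.1% and 46.5% in experimental libraries. This share did not overlap between groups; it was picked out of 7 such shares after its values were seen and was not tested.

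None of the 3 ligand genes passed, and Dll1 and Jag2 had log2 changes below 0. Dll1, a Delta ligand of basal keratinocytes, stood at 6.23, 4.35, 3.13 and 0 TPM across the controls, with 0, 0, 2.57 and 1.43 TPM in the experimental group. Control libraries 1 to 3 lay above each experimental library and control library 4 was listed at 0 (log2 change -0.80, SE 0.36, limma adjusted p = 0.299). Jag2, a Jagged ligand of the basal layer, was measured at 32.1, 22.5, 13.4 and 3.36 TPM in the 4 controls, and the experimental values were 4.62, 8.01, 12.2 and 10.7 TPM. For Jag2 the highest control was 9.58 times the lowest, the widest control range among the 31 members above 1 TPM in all 8 libraries. Jag1, a ligand of suprabasal cells, had control values of 17.5, 8.79, 6.33 and 5.13 TPM and experimental values of 10.6, 7.43, 11.4 and 10.3 TPM.

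Rbpj, the DNA-binding partner of the receptors, averaged 10.8 ± 1.14 and 10.7 ± 2.25 TPM (SD, n = 4 each). Hes1, a repressor and the classical target of Notch in keratinocytes, stood at 59.8, 52.5, 41.7 and 31.6 TPM across the controls, with 49.4, 51.7, 46.4 and 39.0 TPM in the experimental group. Experimental values of Hes1 lay inside the control range, and its log2 change was 0.04 (SE 0.21, limma adjusted p = 0.940). Nrarp, a target gene whose product feeds back on the pathway, averaged 74.0 ± 25.6 and 90.3 ± 11.5 TPM and did not pass (limma adjusted p = 0.514).

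The other Notch pathway genes form a list of 63 ligands, receptors, processing enzymes, modifiers and cofactors, of which 47 were tested. None passed over all genes in limma, where 2.46% of all genes passed; 6 had an unadjusted p under 0.05. Their log2 changes were below 0 for 37 and above 0 for 10, with a median of -0.28 against -0.18 over all genes tested. Groups were apart for 6 of the 47, each lower, or 12.8%, next to 12.6% of all genes. The 2 of lowest p were Aph1a and Hif1an. Aph1a, a subunit of the gamma-secretase that cuts Notch receptors, was measured at 77.7, 78.7, 68.0 and 80.6 TPM in the 4 controls, and the experimental values were 49.3, 39.2, 55.2 and 41.7 TPM (log2 change -0.72, SE 0.16, limma adjusted p = 0.0525). Its controls and experimental libraries were clearly apart. Hif1an, an oxygen-dependent hydroxylase that also modifies Notch, had control values of 11.5, 11.0, 10.6 and 9.03 TPM and experimental values of 5.56, 4.75, 7.42 and 6.72 TPM (log2 change -0.71, SE 0.18, limma adjusted p = 0.0696). With quantile normalization both passed (limma adjusted p = 0.0307 and 0.0417), and with centring Hif1an alone did (limma adjusted p = 0.0348). Both also passed without control library 4 (limma adjusted p = 0.0484 and 0.0406). The authors' deposited table of differential expression lists Hif1an, Dtx4 and Psen2 from this list, with log2 fold changes of -0.60, -1.44 and -0.69 and adjusted p of 0.000554, 0.0158 and 0.0120.

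None of the 34 genes is in the authors' deposited table of 748 genes, all of which have a fold change below 0 and an adjusted p under 0.05; it may be one part of a larger table, and genes that read higher, such as Elf3, Ehf and Cebpb, could not appear in it. None is among the 236 genes of the deposited MAJIQ comparison of splice junctions either. The sources used here do not say whether junctions that did not differ were left out.

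A further list of 83 epidermal transcription factors outside the 34 held 69 tested genes. Of these 1 rose and 1 fell past the threshold, Grhl3 (33.6 ± 3.14 TPM in controls, against 79.9 ± 19.8 TPM in the experimental group) and Grhl1 (178 ± 36.5 and 61.4 ± 13.8 TPM; SD, n = 4 each), with limma adjusted p of 0.0156 and 0.0077. Both encode grainyhead-like factors of the epidermal barrier. Over all genes tested 0.917% rose and 1.54% fell past the threshold, so the list's count was near that share. Groups were apart for 3 genes of the list that were higher and 7 that were lower. That is 14.5% of its tested genes, next to 12.6% of all genes. Without experimental libraries 2 and 4 neither Grhl1 nor Grhl3 passed (limma, 0.139% of all genes passed). Grhl3 also lost its call without control library 3 or without experimental library 1, 3 or 4, whereas Grhl1 passed in 19 of 20 alternative fits. The authors' deposited differential expression data list Grhl1, Klf8 and Runx1 from this list. Their log2 fold changes were -1.41, -0.72 and -0.37 (the authors' DESeq adjusted p = 5.37e-05, 0.0292 and 0.0494). Grhl3, which read higher, could not appear there. The list's median log2 change was -0.15. In the deposited MAJIQ table, which combines the libraries of a group, 4 of these 83 genes appear: Grhl1, Nfix, Pparg and Tead1.

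Among genes of keratinocyte differentiation most log2 changes were above 0, but none rose past the threshold without rescaling. With centring and with quantile normalization 2 rose past it, Ivl and Alox12b, which encodes a lipoxygenase of the barrier. Under those scalings 3.60% and 3.61% of all genes passed, and 283 and 269 genes rose past it, against 98 without rescaling. Without control libraries 3 and 4, 5 differentiation genes rose past it. In that fit 24.2% of all genes passed, 241 higher and 2354 lower. Of 24 tested, 17 had a log2 change above 0, with a median of 0.23, and 1 fell past the threshold: Calml3, a calmodulin-like epithelial protein, with means of 466 ± 20.9 (control) and 163 ± 50.6 TPM (experimental; SD, n = 4 each). The log2 change of Calml3 was -1.57 (limma adjusted p = 0.0085), and its call was lost without experimental libraries 2 and 4. Over all genes tested 1.54% fell past the threshold. Groups were apart for 8 of the 24, or 33.3%, 5 higher and 3 lower, next to 12.6% of all genes. Involucrin (Ivl), an envelope precursor, averaged 407 ± 39.5 and 715 ± 156 TPM (limma adjusted p = 0.0650), and keratin 1 (Krt1), of the spinous layer, 11546 ± 4148 and 19005 ± 3530.5 TPM (limma adjusted p = 0.247).

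For most of the 34 genes the controls spread more widely than the experimental libraries. Trp63 read 47.0, 35.8, 24.7 and 8.73 TPM in control libraries 1 to 4, a 5.38-fold span, and 22.1, 15.4, 19.3 and 19.3 TPM in experimental libraries, a 1.44-fold span. All 4 experimental values of Trp63 lay between control libraries 3 and 4. Id2, an inhibitor of basic helix-loop-helix factors, stood at 28.3, 18.6, 12.9 and 8.36 TPM across the controls, with 11.6, 12.0, 5.67 and 11.4 TPM in the experimental group. Its relative Id1 varied less, at 57.4, 50.8, 37.5 and 50.9 TPM (control) and 49.3, 36.6, 38.8 and 32.1 TPM (experimental). Of the 32 tested members, 14 were highest in control library 1 and lowest in control library 4 among controls, or 43.8%, next to 48.8% of all genes tested. Another 10 were highest in control library 4, among them Maf, Prdm1, Ovol1, Notch2 and Gata3; these are 31.2% of the tested members, next to 22.2% of all genes. The control range was wider than the experimental one for 21 of 32 members, or 65.6%, next to 64.2% of all genes.

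**Figure D4:**
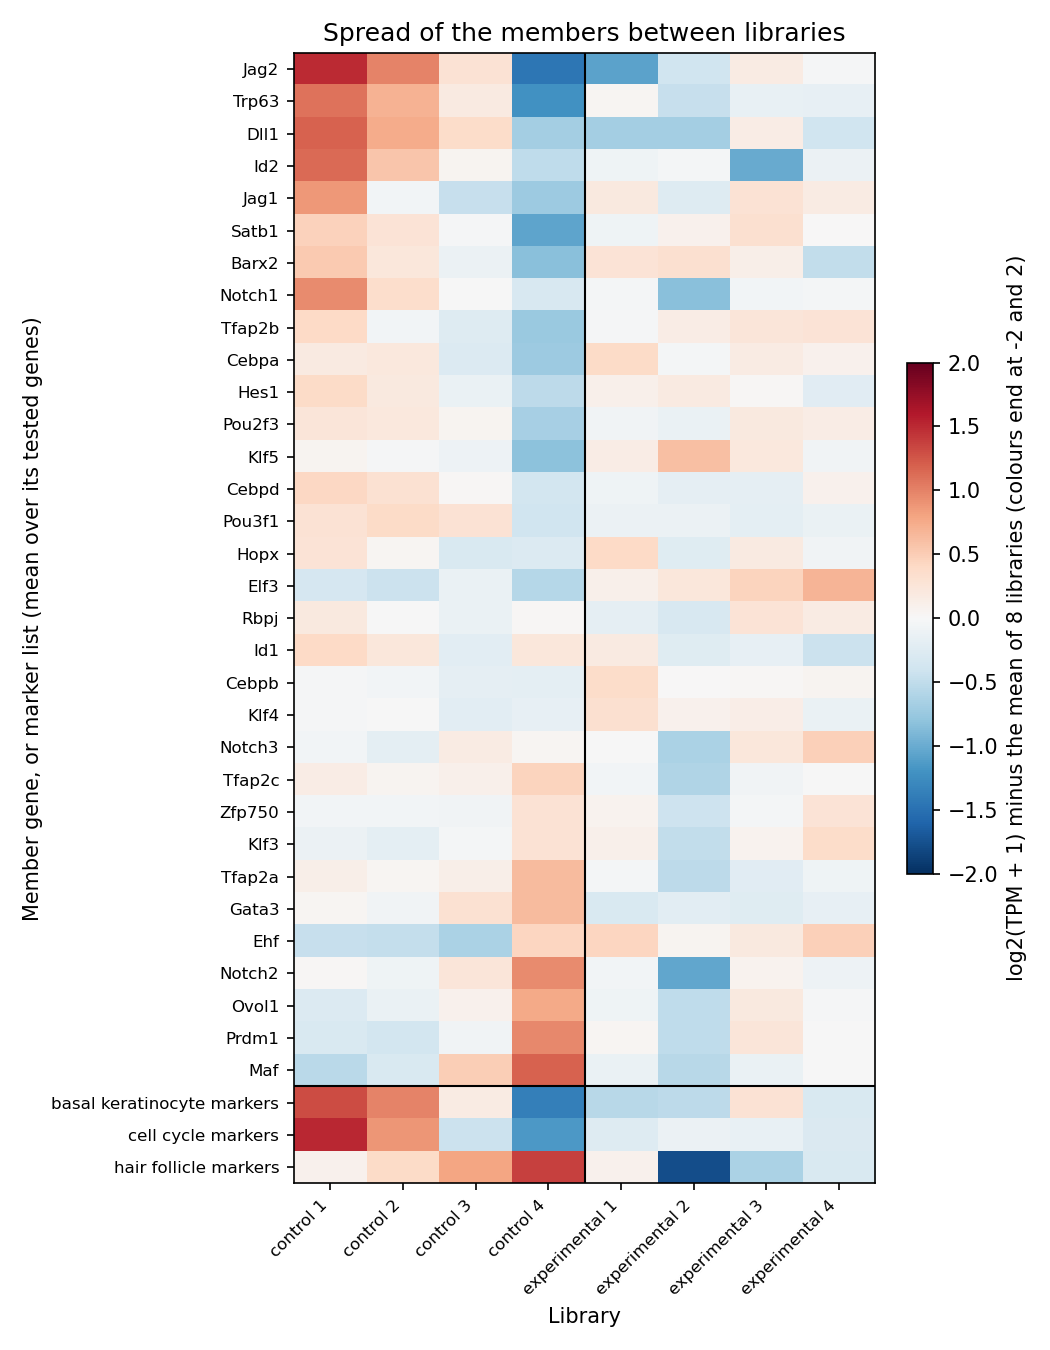
Level of each tested member in each library on the log2(TPM + 1) scale, relative to its mean over the 8 libraries (red higher, blue lower), ordered by the difference between control libraries 1 and 4, with 3 marker lists below the line. The order alone puts genes higher in control library 1 at the top (Jag2, Trp63, Dll1, Id2). It puts genes higher in control library 4 at the bottom (Maf, Prdm1, Ovol1). The basal and cell cycle lists are highest in control library 1 and the hair follicle list in control library 4. Of all genes tested, 48.8% were highest in control library 1 and lowest in control library 4 among controls. Another 22.2% were highest in control library 4.

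The direction of many comparisons turned on which controls were used. Without control libraries 3 and 4, which had the lowest basal marker sums, 7 members passed in limma where 24.2% of all genes did: Trp63, Dll1, Jag2, Pou3f1 and Id2 were lower, and Ehf and Elf3 higher. Trp63 then had a log2 change of -1.08 (SE 0.19, adjusted p = 0.0082) and Jag2 one of -1.57 (SE 0.34, adjusted p = 0.0155). Without control libraries 1 and 2 instead, Trp63 stood at 0.33 and Jag2 at 0.25, both above 0 and far from the threshold, and 1 member passed, Maf, with a log2 difference of -1.04 (SE 0.24, adjusted p = 0.0465), where 5.19% of all genes passed. In all, 18 of 32 members, or 56.2%, had opposite signs in these 2 fits, next to 47.5% of 10409 genes. With libraries weighted by their residual spread, 10 members passed, where 41.4% of all genes did. Elf3 kept its size in the 2 fits without a pair of controls, at 0.74 and 0.71 (limma adjusted p = 0.0329 and 0.121). Basal, cell cycle and hair follicle sums moved with these libraries, and their part in the members' differences was not tested.

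Set against keratin 5 (Krt5), the keratin of basal cells, the basal members followed different courses. Trp63 amounted to 15.1, 13.7, 24.2 and 27.6 TPM per 1000 TPM of Krt5 in control libraries 1 to 4 and to 25.8, 22.9, 18.5 and 31.8 in experimental libraries. Its share was thus higher in the controls with little Krt5, where Krt5 itself read 1020 and 316 TPM against 3102 and 2617 TPM in libraries 1 and 2. Jag2 stayed between 8.58 and 13.2 TPM per 1000 TPM of Krt5 in controls, although its own level spanned 9.58-fold there, and ran from 5.38 to 17.6 in experimental libraries. Notch1 per 1000 TPM of Krt5 ran from 4.17 to 20.4 in controls and from 6.30 to 13.4 in experimental libraries. These ratios show unequal change of a pair of genes within a library and overlap between groups.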

How the data were processed

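RNA-seq of 8 epidermis libraries was analysed from values that the authors deposited. The expression data hold log2 TPM per gene as deposited by the authors; set against their mean normalized counts per kilobase, they behave as log2 of TPM in which anything not above 1 TPM was set to 0. Per the file headers, the authors' deposited differential expression data give a mean normalized count signal, log2 fold changes, a Wald score and p-values. The deposited MAJIQ data give a PSI fraction per group and a probability score. Salmon 0.14.0, STAR, SAMtools 1.9, DESeq and the builds GRCm38 and mm10 are named, without roles, per the submitters' processing notes. Columns name a group but no replicate of the labels, so libraries are numbered in column order; the table's name says that no batch correction was applied. Limma 3.58.1 (R 4.3.3) was fitted to log2(TPM + 1), TPM set to at least 1, for 10682 genes with mean TPM of at least 1 (entries at 0 counted as 0), with the group as its only term, a variance trend, two-sided p-values and Benjamini-Hochberg adjustment over all genes. Log2 changes of low genes are understated by the pseudocount. The script was tested on simulated data, with changes placed in genes of at least 5 TPM. It recovered 51% of log2 changes of 1 and 88% of log2 changes of 2, and 6.08% of its calls were false. The simulated noise was independent between genes and libraries. Shifts shared by many genes of a library, as seen among these controls, were not simulated, so these rates may not hold here. The plan had assumed another log scale, so values were first returned to TPM. Fold values are ratios of mean TPM. Of 21690 identifiers 21662 matched a symbol; coordinates are those of GENCODE M21 (GRCm38). Members with an unadjusted p under 0.05, groups apart or a log2 change of at least 1, and the members whose spread between libraries is described, are given per library; of the other lists up to 4 passing genes, or the 2 of lowest p, are named, and further genes were named after their values were seen. The members and lists were chosen with earlier results of these data known. Alternatives were other pseudocounts, filters, scalings, variance models, thresholds and left-out libraries. Tables used pandas 2.3.3 and figures matplotlib 3.10.9.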

Additional observations from a re-analysis of the deposited data

Results flagged for a closer look

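In 65 groups of 4 libraries, over the 34 genes, 9 had a library that stood apart from the other 3. Its gap over the range exceeded Dixon's 95% critical value. Chance flags about 1 in 20 groups if they are independent, but these groups share the same 8 libraries. The share flagged over all genes was not computed, so the count is not a result particular to the members. Of all genes tested, 48.8% were highest in control library 1 and lowest in control library 4 among controls. Another 22.2% were highest in control library 4. In controls all 5 such values were in library 4. Ehf read 18.3 TPM there against 8.24 to 9.35 TPM in the other controls, Tfap2a 79.7 against 52.2 to 55.7 TPM, Prdm1 64.1 against 24.8 to 30.9 TPM, and Zfp750 114 against 89.4 to 90.5 TPM. Pou3f1 was low in control library 4, at 41.6 TPM against 67.6 to 72.8 TPM.

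Among experimental libraries, library 2 stood apart for Notch1 at 4.24 TPM against 7.98 to 8.13 TPM and for Tfap2c at 12.9 TPM against 19.2 to 20.04 TPM. Library 3 stood apart for Id2 at 5.67 TPM against 11.4 to 12.0 TPM, and library 1 for Cebpb at 329 TPM against 257 to 265 TPM. Experimental library 2 was the lowest of its group for 19 of the 32 tested members, or 59.4%, next to 62.4% of all genes tested.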

How the results depend on the processing

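The directions of the 6 members named by the rule (Elf3, Ehf, Cebpb, Gata3, Tfap2a, Tfap2c) and of Aph1a, Hif1an, Grhl1, Grhl3, Smarcd3 and Calml3 were the same under all alternatives that gave a value. Adjusted p ranged from 0.0012 to 0.406 for Elf3, from 0.0011 to 0.640 for Ehf, from 0.0514 to 0.638 for Gata3, from 0.0979 to 0.689 for Tfap2a, from 0.219 to 0.746 for Tfap2c and from 0.158 to 0.761 for Cebpb (limma). Members past the threshold numbered 0, and 1 (Elf3) with quantile normalization, 1 (Elf3) with centring, 1 (Elf3) at adjusted p under 0.1 (5.00% of all genes), 10 with library weights (41.4% of all genes), 7 without control libraries 3 and 4, 1 (Maf) without control libraries 1 and 2, and 0 to 2 when 1 library was left out, where Ehf and Dll1 passed without control library 4. Members with groups apart numbered 5, and 5 to 12 when 1 library was left out, with 12 without control library 4, where the share of all genes with groups apart rose from 12.6% to 23%. The other Notch pathway list, with 0 calls, gave 1 without the filter, 2 with quantile normalization, 1 with centring, 20 with library weights, 11 without control libraries 3 and 4, 2 at adjusted p under 0.1, and 0 to 6 with 1 library left out. The other transcription factors, with 2 calls, gave 33 with library weights, 13 without control libraries 3 and 4, 5 without control libraries 1 and 2, 0 without experimental libraries 2 and 4, 5 at adjusted p under 0.1, 1 at under 0.01, and 1 to 4 with 1 library left out. Chromatin regulators, with 1 call (Smarcd3), gave 0 with a mean of at least 5 TPM, a filter that left Smarcd3 untested. They gave 15 with library weights, 15 without control libraries 3 and 4, and 0 without experimental libraries 2 and 4. The list also gave 2 at under 0.1, 0 at under 0.01, and 0 to 1 with 1 library left out. Differentiation genes, with 1 call, gave 3 with quantile normalization and 3 with centring (2 higher, 1 lower in each), 15 with library weights (11 higher, 4 lower), 6 without control libraries 3 and 4, 0 without experimental libraries 2 and 4, 3 at under 0.1, and 1 to 3 with 1 library left out. All genes, with 263 calls, gave 4423 with library weights, 2595 without control libraries 3 and 4, 544 without control libraries 1 and 2, 15 without experimental libraries 2 and 4, 534 at under 0.1, 55 at under 0.01, and 85 to 578 with 1 library left out. The cause of these shifts was not tested. No paired analysis was possible because the columns carry no replicate number of the labels. TPM carries no depth, and a value of 0 allows up to 1 TPM.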

Other observations

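Chromatin regulators of the epidermis, a list of 30 genes with 28 tested, lay mostly lower: 25 log2 changes were below 0 and 3 above, with a median of -0.31 against -0.18 over all genes tested. Groups were apart for 7, or 25%, next to 12.6% of all genes, 6 lower and 1 higher. The higher one, Smarcd3, a subunit of the SWI/SNF remodelling complex, was the list's 1 call past the threshold, which 2.46% of all genes passed. It was measured at 1.64, 1.72, 1.23 and 0 TPM in the 4 controls, and the experimental values were 3.13, 3.52, 4.35 and 3.25 TPM (limma adjusted p = 0.0196 for a log2 change of 0.93 with SE 0.17). It did not pass without experimental libraries 2 and 4, without control library 3, or without experimental library 2, 3 or 4. In the authors' deposited MAJIQ table the first exon of Smarcd3 differed as well: the junction of the proximal first exon (chromosome 5, 24598803 to 24601781) had an inclusion level (PSI) of 0.586 in the control group, and of 0.115 in the experimental one. The junction of the distal first exon (24598803 to 24622524) had 0.414 and 0.885. Chd4, a remodelling ATPase of the NuRD complex, had control values of 64.9, 54.8, 58.5 and 71.3 TPM and experimental values of 39.6, 31.9, 42.9 and 45.8 TPM, with groups apart, and did not pass (limma adjusted p = 0.0883).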
